A study of Mus musculus with 6 samples.

Results

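Long intergenic non-coding RNAs (lincRNAs) are transcripts that lie between protein-coding genes in the annotation and have no recognised open reading frame. The 189 genes described here were chosen by level: they are the genes that the deposited table types as lincRNA and that averaged at least 1 FPKM across the 6 libraries, out of 1303 lincRNA genes and 24034 genes in all. FPKM (fragments per kilobase of transcript and per unit of mapped fragments) is a level scaled for transcript length and library size. Lncenc1, the mutated long non-coding RNA gene, is not a member, and its level was not analysed here, so the genotype labels were not checked against it. Being typed as lincRNA and reaching this mean are therefore not findings. The choice used the mean of both groups together: 163 of the 189 reached 1 FPKM in both group means, 20 only in WT and 6 only in HO, and these 26 had to differ between the groups in some measure. Of the members named below, Gm34654, Gm34333, Gm45941, Gm32468, Gm36041, Gm40923, AC132320.1 and Snhg18 are among the 20, so their lower HO values are in part set by the choice of members. Just inside the threshold were AC132320.1 and Gm45941, with means of 1.003 and 1.018 FPKM, and just outside it C030034I22Rik and Gm36026, with 0.982 and 0.964 FPKM.

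The samples were whole livers of C57BL/6 mice at 25 weeks of age. The WT group (3 libraries, genotype lncenc1wt/wt) and the HO group (3 libraries, genotype lncenc13A/3A) differed in the Lncenc1 allele. The labels do not say what the 3A allele changes, and the design text speaks of knockout mice. No treatment is labelled. The labels do not tie libraries to animals, so p-values measure the spread between these libraries, which may be partly technical.

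LincRNAs act in several ways: some form nuclear structures, some bind proteins or microRNAs, some carry small nucleolar RNAs (snoRNAs) or microRNAs in their introns, and for others the act of transcription near a gene is what matters. Many are present at few copies per cell and in few tissues. A few genes of this class have since been found to encode small proteins. For most of the genes below that carry a provisional Gm, Rik or clone name no role is given here.

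The libraries were similar in relative depth, with 19100000 to 23500000 read equivalents in WT and 19900000 to 24600000 in HO. At 1 FPKM, a transcript of 2000 bases held 38.2 to 49.2 such reads, so members near the threshold were measured with little precision. All genes together summed to 495570 to 518218 FPKM per library. All 10 hepatocyte markers listed were measured, with a summed level of 60102 to 63868 FPKM in WT and 51463 to 55412 FPKM in HO. That sum follows the most abundant of them, such as Alb and Apoa2: over the 10 the median log2 change was 0.10, 3 had an unadjusted p under 0.05 and higher values in HO and 2 lower, and the 1 gene past the threshold, the urea cycle enzyme Cps1, rose (0.86 ± 0.13, SE; adjusted p 0.0422). Over all genes tested, 5.01% had an unadjusted p under 0.05 and higher values in HO and 16.5% lower. In whole tissue, fewer cells of a type and less RNA per cell cannot be told apart.

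The level varied widely among the lincRNAs. The 189 genes took 0.310% to 0.339% of all FPKM in WT and 0.287% to 0.317% in HO. Malat1 alone gave 9.95% of their summed FPKM, the 5 most abundant gave 33.1% and the 10 most abundant 46.9%. The median gene had a mean of 2.78 FPKM, 30 genes reached 10 FPKM, and 70 were under 2 FPKM. The summed level was 1721, 1602 and 1549 FPKM in WT and 1488, 1596 and 1554 FPKM in HO, so the groups overlapped. The number of members at 1 FPKM or more did not overlap, at 177, 178 and 179 in WT and 164, 169 and 169 in HO. Over all 1303 lincRNA genes, without the choice by level, it was 200, 195 and 187 in WT and 178, 180 and 187 in HO, so the groups met. The number of all genes at that level also did not overlap, at 11637 to 11667 in WT and 11321 to 11471 in HO.

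Their gene structures were short. Over the union of exons the median length was 1682 bases (range 154 to 20771), against 4375 bases for the protein-coding genes tested. At least 1 transcript with 2 or more exons was annotated for 168 members, and 21 had single-exon transcripts alone. The nearest tested protein-coding gene overlapped the member in 38 cases and lay within 5000 bases in 91, with a median distance of 6121 bases. Exonic bases were shared with another gene, small RNA genes not counted, in 68 of the 189. The authors' use of strand in counting was not given in the sources used here, and reads of a lincRNA and of a gene on the other strand cannot be told apart with certainty where exons overlap.

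Between HO and WT, 1 of the 189 lincRNAs rose and 2 fell (limma on log2(FPKM + 0.5), Benjamini-Hochberg adjustment over all 13250 genes tested, adjusted p under 0.05). The risen gene was Gm30262 and the fallen genes were Gm13021 and Gm34654. The share of all genes tested that passed was 0.325% for rises and 0.815% for falls, 1.14% together, against 1.59% of the lincRNAs. This is a difference of about a single gene and is not read as a result about lincRNAs. Leaving out WT1, WT2, HO2 or HO3 left 0 of the 189 past the threshold, while 45 to 53 had an unadjusted p under 0.05 in those fits. Of all genes tested only 0.0453% to 0.264% passed there, so the loss of calls was not particular to lincRNAs. Without WT3 the count was 3 risen and 6 fallen, where 1.98% of all genes passed. With array weights, which give noisier libraries less weight, it was 8 and 19, where 7.1% of all genes passed.

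**Figure D1:**
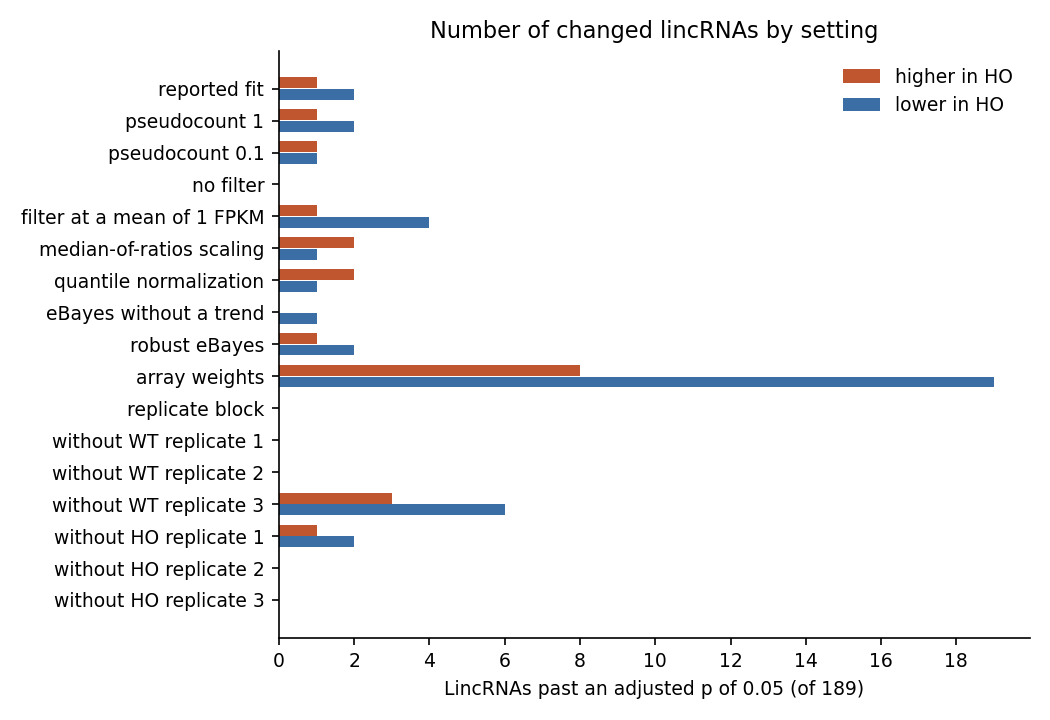
Number of the 189 lincRNAs past an adjusted p of 0.05, higher and lower in HO, in the reported fit and under 16 alternatives. The count is 0 in 6 of the alternatives and reaches 8 and 19 with array weights.

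Gm13021 (ENSMUSG00000086437.2) had the smallest p of the 189. It lies on the plus strand of chromosome 4 at 140422524 to 140431931 (GRCm38, the mm10 build), with up to 4 exons in a transcript and no exonic base shared with another gene. Its level was 4.43, 3.43 and 4.14 FPKM in the WT libraries and 1.64, 1.41 and 1.55 FPKM in the HO libraries. Every HO value was under every WT value. The change was -1.14 ± 0.13 (SE) on the log2(FPKM + 0.5) scale, with a 95% confidence interval of -1.46 to -0.82 and an adjusted p of 0.0259. Without WT1, WT2, HO2 or HO3 the adjusted p was 0.11, 0.0969, 0.0735 and 0.0622. Over 16 alternatives the change kept its sign, its adjusted p ranged from 0.0159 to 0.11, and it passed the threshold in 10. The nearest tested protein-coding gene was Arhgef10l, which lies 82554 bases away. Arhgef10l had a change of 0.33 ± 0.15 (SE) and an adjusted p of 0.256.

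Gm30262 (ENSMUSG00000112249.1), on the plus strand of chromosome 10 at 111599177 to 111611338, was the gene that rose. Its level was 9.57, 9.85 and 12.1 FPKM in WT and 17.7, 17.3 and 17.9 FPKM in HO. The HO libraries lay close together and all above the WT libraries. The change was 0.72 ± 0.11 (SE; 95% confidence interval 0.46 to 0.99) and the adjusted p was 0.0417. The call was lost without WT1 (adjusted p 0.152), WT2 (0.164), HO1 (0.059), HO2 (0.107) or HO3 (0.112), and it was held in 8 of 16 alternatives, with adjusted p from 0.019 to 0.164 and no change of sign. Phlda1, a gene induced by growth factor and stress signals, was the nearest tested coding gene, 90532 bases away. Its level was 29.2, 32.2 and 30.5 FPKM in WT and 166.8, 41.0 and 102.8 FPKM in HO. The HO libraries differed widely among themselves, and the change of 1.52 ± 0.45 (SE) had an adjusted p of 0.121. It was 0.0335 without HO2 and 0.147 to 0.293 without each other library.

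Gm34654 (ENSMUSG00000111253.1), on the minus strand of chromosome 9 at 77807036 to 77809793, had the lowest log2 change of the 189 and belongs to the 20 members that reached 1 FPKM only in WT, so its fall is in part set by the choice of members. Its level was 7.71, 6.47 and 2.53 FPKM in WT and 0.375, 0 and 0.791 FPKM in HO. All HO values lay below all WT values, and WT3 was the lowest of its group. The change was -2.75 ± 0.46 (SE; 95% confidence interval -3.84 to -1.67) with an adjusted p of 0.0484; since HO2 was listed at 0, its size depends on the pseudocount. The call was lost without WT1 (adjusted p 0.167), WT2 (0.177), HO1 (0.0683), HO2 (0.113) or HO3 (0.075) and held in 5 of 16 alternatives, with adjusted p from 0.0247 to 0.177 and no change of sign. The nearest tested coding gene, 12551 bases away, was Gclc, the catalytic subunit of the enzyme that limits glutathione synthesis. Gclc had 138.5, 134.3 and 73.5 FPKM in WT and 69.4, 50.8 and 41.9 FPKM in HO. As in the lincRNA, WT3 was the lowest of its group. The HO libraries were ordered otherwise, with HO3 the highest for Gm34654 and the lowest for Gclc. The Gclc change was -1.06 ± 0.28 (SE, limma adjusted p 0.1001). The Gclc adjusted p was 0.0389 without WT3 and 0.081 to 0.278 without each other library.

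Promoter windows are shown for the risen and a fallen gene, and for the most abundant member among those with the 8 smallest p, because the comparison turns on these genes. Each runs from 250 bases before to 50 after the RefSeq start (GRCm38.p6), 5′ to 3′ on the gene's strand. The Gm30262 window is chr10:111599475-111599774 (plus strand, its start 548 bases from the GENCODE start), that of Gm34654 is chr9:77808926-77809225 (minus strand, 818 bases from the GENCODE start) and that of 1810058I24Rik is chr6:35252460-35252759 (plus strand, 56 bases from it). The Gm30262 and Gm34654 windows lie inside the genes as GENCODE places them, so they hold no sequence before the GENCODE start. Gm13021 had no entry. Capitals mark matches on either strand to 7 motifs, and adjoining matches run together. The basal promoter motif searched was TATAAA. For STAT factors it was TTCNNNGAA, for FOXA factors it was TGTTTAC or, as the other accepted form, TGTTTGC, and for CEBP factors it was TTGCNNAA. For the GC box it was GGGCGG, for the factor HNF4A it was CAAAGTCCA, and for the factor YY1 it was GCCATNTTG.
Gm30262: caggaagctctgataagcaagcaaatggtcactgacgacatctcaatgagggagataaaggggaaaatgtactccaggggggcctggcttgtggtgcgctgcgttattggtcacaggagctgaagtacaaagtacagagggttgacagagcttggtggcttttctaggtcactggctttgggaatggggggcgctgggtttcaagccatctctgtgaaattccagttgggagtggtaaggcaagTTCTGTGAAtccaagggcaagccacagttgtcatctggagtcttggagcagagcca
Gm34654: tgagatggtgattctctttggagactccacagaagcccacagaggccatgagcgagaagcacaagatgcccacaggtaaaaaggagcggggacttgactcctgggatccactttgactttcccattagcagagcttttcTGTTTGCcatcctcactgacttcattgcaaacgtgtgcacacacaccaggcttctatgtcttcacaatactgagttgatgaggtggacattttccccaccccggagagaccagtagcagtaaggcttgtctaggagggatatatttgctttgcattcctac
1810058I24Rik: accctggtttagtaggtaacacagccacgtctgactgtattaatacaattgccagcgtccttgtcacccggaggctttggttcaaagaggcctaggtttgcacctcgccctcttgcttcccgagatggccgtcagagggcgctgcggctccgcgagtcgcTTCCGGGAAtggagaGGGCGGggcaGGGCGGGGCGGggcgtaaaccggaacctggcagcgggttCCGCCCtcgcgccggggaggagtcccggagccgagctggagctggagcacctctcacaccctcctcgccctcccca

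Gm30262 held 1 STAT match, Gm34654 held 1 FOXA match, and 1810058I24Rik held 1 STAT match and 4 GC boxes. Of the 189 members, 92 matched a RefSeq promoter by symbol, and in 56 of these the RefSeq start was within 100 bases of the GENCODE start. The GC box was found in 31.5% of the 92 windows, against 35.7% of all promoters and 64.1% of those of tested protein-coding genes. The STAT motif was found in 7.61% of the member windows and 8.3% of all promoters, and the FOXA motif in 10.9% and 8.48%. CEBP matches were in 14.1% of member windows and 10.8% of all promoters, and TATA boxes in 14.1% and 13.6%. HNF4A and YY1 were each found in 1.09% of member windows, against 0.475% and 2.51% of all promoters. A match is a string of letters in the window and not a measured site.

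**Figure D2:**
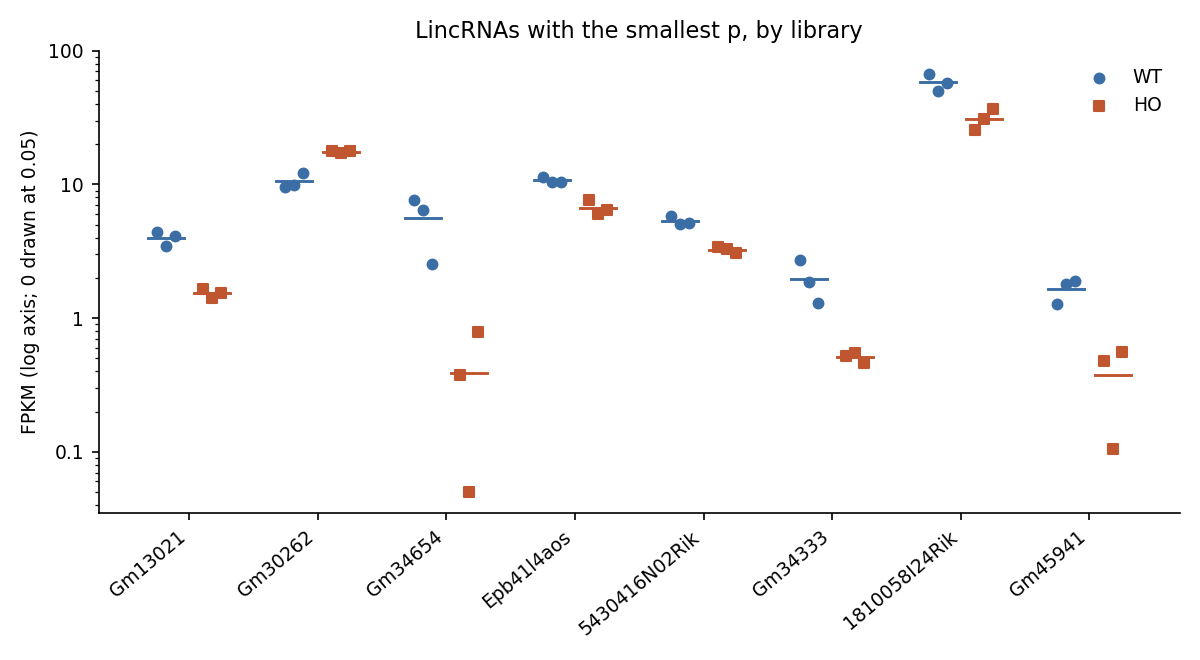
Level of the 8 lincRNAs with the smallest p in each library, in FPKM on a log axis, with circles for WT, squares for HO and bars for group means (n = 3 each; a value of 0 is drawn at 0.05). In each of the 8 the WT and HO libraries do not overlap, which is in part set by the choice of the smallest p. Groups did not overlap for 34.4% of the 189 lincRNAs and 27.9% of all genes tested. Gm30262 is the one with the higher HO values.

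The next 5 genes by p did not pass the threshold, with adjusted p from 0.0519 to 0.0581. 1810058I24Rik was the most abundant of them. It lies on chromosome 6 at 35252654 to 35263496 and has been found to encode a small mitochondrial protein, Stmp1, so its type in the table does not mean that it is untranslated. Its level was 66.7, 49.6 and 57.4 FPKM in WT and 25.6, 30.8 and 36.8 FPKM in HO. The groups did not overlap, and the change was -0.89 ± 0.16 (SE; 95% confidence interval -1.27 to -0.51; adjusted p 0.0528). Epb41l4aos, a snoRNA host gene on chromosome 18, had 11.3, 10.5 and 10.4 FPKM in WT and 7.60, 6.05 and 6.44 FPKM in HO. Its change of -0.65 ± 0.11 (SE) had an adjusted p of 0.0519, which was 0.0444 without HO1, 0.0663 to 0.185 without each other library, and 0.0485 when genes averaging under 1 FPKM were left out. 5430416N02Rik on chromosome 5 had 5.85, 5.05 and 5.15 FPKM in WT against 3.42, 3.30 and 3.05 FPKM in HO, a change of -0.64 ± 0.11 (SE; adjusted p 0.0521, or 0.0485 with that stricter filter). Gm34333, also on chromosome 5, had 2.70, 1.86 and 1.30 FPKM in WT and 0.519, 0.544 and 0.466 FPKM in HO. Here the WT libraries were spread and the HO libraries close together (-1.24 ± 0.22, SE; adjusted p 0.0526). Its adjusted p was 0.0274 without WT3 and 0.0725 to 0.182 without each other library. Gm45941 had 1.28, 1.81 and 1.88 FPKM in WT and 0.475, 0.104 and 0.555 FPKM in HO, a change of -1.33 ± 0.25 (SE; adjusted p 0.0581). Gm34333 and Gm45941 were members through their WT libraries, so their differences are in part set by the choice of members.

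Across the 189 lincRNAs, 130 (68.8%) had a log2 change below 0, and so did 64.6% of all genes tested. The median change was -0.19 for the lincRNAs and -0.09 for all genes tested and for the protein-coding genes among them. Groups of libraries did not overlap for 65 lincRNAs (34.4%), of which 44 were lower and 21 higher in HO. These include 12 of the 26 members that reached 1 FPKM in 1 group mean alone. The same held for 27.9% of all genes tested, 21.4% lower and 6.42% higher. An unadjusted p under 0.05 was found for 62 lincRNAs (32.8%), 19 higher and 43 lower, and for 21.5% of all genes tested, 5.01% higher and 16.5% lower. Among protein-coding genes averaging at least 1 FPKM (n = 10275), 29.4% did not overlap and 22.7% had an unadjusted p under 0.05. These shares are descriptions; whether lincRNAs differed from other genes was not tested.

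The lower middle of the values in HO was shared by genes of all kinds and depended on scaling. After median-of-ratios scaling the median change was 0.0062 over all genes and -0.09 over the lincRNAs, and after quantile normalization it was -0.002 and -0.07. With either scaling 2 lincRNAs passed as risen (Gm30262 and Gm26697) and 1 as fallen (Gm13021), and over all genes median-of-ratios scaling turned 43 rises and 108 falls into 70 and 64. Below, changes are given without such scaling.

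**Figure D3:**
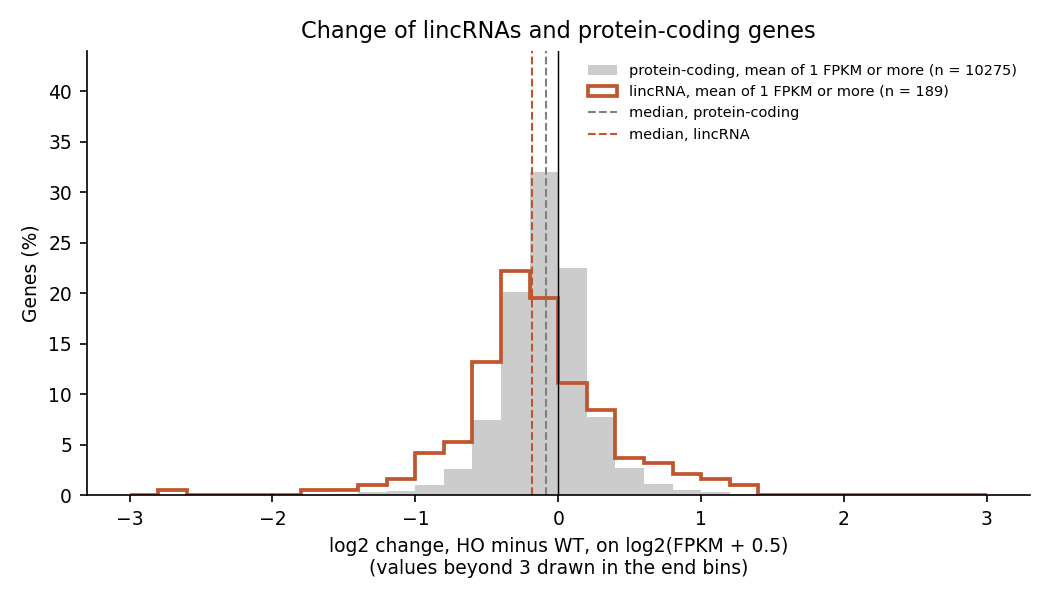
Share of genes (%) by log2 change, HO minus WT, in steps of 0.2, for the 189 lincRNAs (line) and for 10275 protein-coding genes averaging at least 1 FPKM (grey). The lincRNA distribution is wider, and its median of -0.19 lies below the protein-coding one (dashed lines). The sets were not matched on level or length.

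Changes were small for most members. The log2 change lay within 0.25 of no change for 76 of the 189, it was 0.5 or more for 16 and -0.5 or less for 37, and it reached 1 or more for 5 and -1 or less for 8. By level, the median change was -0.17 for the 70 lincRNAs between 1 and 2 FPKM, -0.22 for the 57 between 2 and 5 FPKM and -0.16 for the 62 at 5 FPKM or more. For protein-coding genes in these ranges it was -0.12, -0.08 and -0.09. The spread within groups was wider for the lincRNAs at each level, with a median residual SD of 0.26, 0.24 and 0.20 on the log2 scale against 0.22, 0.19 and 0.15 for protein-coding genes. Ranges of FPKM do not match the number of reads, since the median exonic length was 1682 bases for the lincRNAs and 4375 for the protein-coding genes tested. The part of length in this spread was not tested. HO1 gave the lowest HO value in 46.6% of the lincRNAs and in 36.5% of all genes tested.

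Of the other members with a log2 change of 1 or more in size, 3 are given here, chosen after their values were seen. Gm31583 had 6.40, 4.19 and 4.88 FPKM in WT and 17.5, 8.54 and 12.4 FPKM in HO, a change of 1.20 ± 0.26 (SE; adjusted p 0.0765). Gm32468 had 2.81, 3.30 and 5.05 FPKM in WT and 0.288, 0.429 and 1.76 FPKM in HO (-1.80 ± 0.41, SE; adjusted p 0.0803). Gm36041 had 4.93, 4.94 and 1.53 FPKM in WT and 1.29, 0.808 and 0.547 FPKM in HO (-1.54 ± 0.41, SE; adjusted p 0.101). In Gm32468 HO3, and in Gm36041 WT3, lay nearest to the other group. None of the 3 passed the threshold, and Gm32468 and Gm36041 reached 1 FPKM only in the WT mean.

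**Figure D4:**
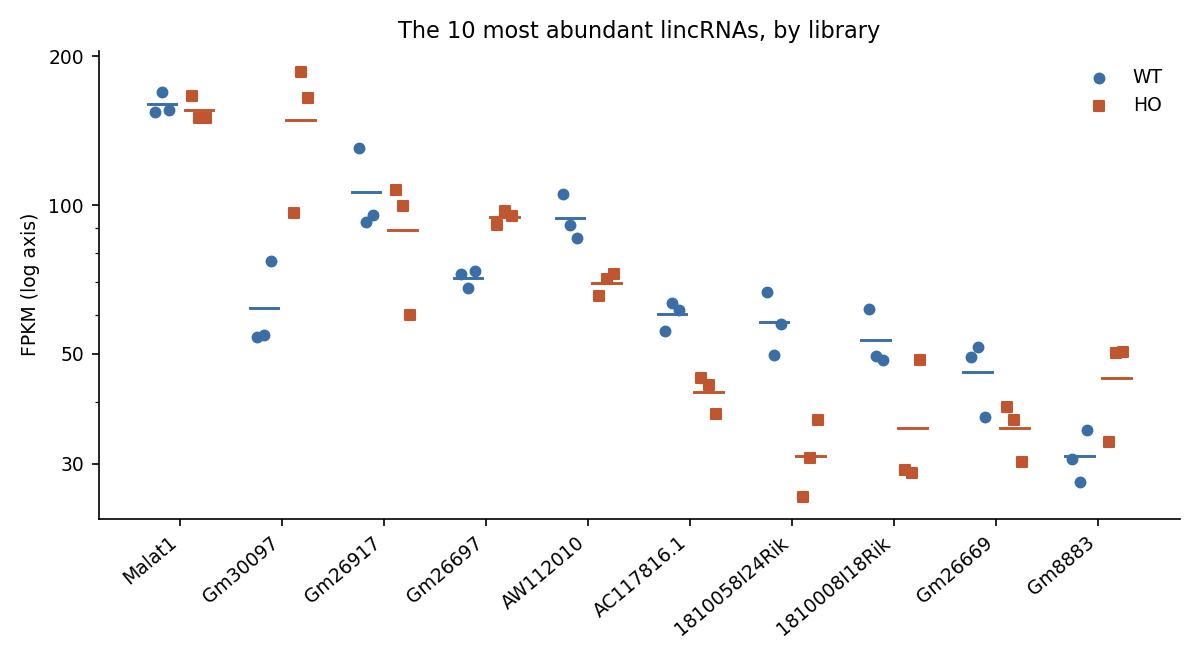
Level of the 10 most abundant lincRNAs in each library, in FPKM on a log axis, with circles for WT, squares for HO and bars for group means (n = 3 each). Malat1 lies between 150 and 170 FPKM in all libraries, while Gm30097 lies higher in each HO library than in any WT library.

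None of the 10 most abundant lincRNAs passed the threshold, and 8 of them, all but Malat1 and Gm26917, had an unadjusted p under 0.05 in limma. Such a p was found for 32.8% of the 189 lincRNAs and 21.5% of all genes tested. For protein-coding genes averaging at least 1 FPKM the share was 22.7%, and whether abundant lincRNAs differed from these was not tested. Malat1, a nuclear RNA of splicing speckles, had the highest level, with 154.4, 169.7 and 155.5 FPKM in WT and 166.1, 150.1 and 150.4 FPKM in HO. The groups overlapped, and the change of -0.04 had a 95% confidence interval of -0.24 to 0.16 and the other sign after median-of-ratios scaling (0.07), after quantile normalization (0.04) and without WT2 (0.0036). AW112010, an immune-induced transcript reported to be translated, had 105.3, 91.1 and 85.6 FPKM in WT and 65.6, 70.9 and 72.5 FPKM in HO (-0.43 ± 0.10, SE; adjusted p 0.0868). AC117816.1, a single-exon gene, had 55.5, 63.4 and 61.4 FPKM in WT and 44.7, 43.3 and 37.7 FPKM in HO (-0.52 ± 0.10, SE, limma adjusted p 0.0621). In AW112010 and AC117816.1 every HO value lay below every WT value. AC117816.1 lies 1089 bases past the end of A1cf on the same strand. A1cf averaged 35.4 ± 3.75 FPKM in WT and 29.1 ± 6.25 FPKM in HO (SD, n = 3, change -0.30, limma adjusted p 0.348). The part of A1cf in the AC117816.1 values was not tested. The markers of Kupffer cells and macrophages, where AW112010 is known to be induced, summed to 134.7 to 230.7 FPKM in WT and 120.2 to 147.8 FPKM in HO. The highest WT sum was that of WT1, and WT2 and WT3, at 134.7 and 146.7 FPKM, lay within the HO range. In limma none of the 10 passed the threshold and 1 had an unadjusted p under 0.05; their part in the AW112010 values was not tested.

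1810008I18Rik had 61.6, 49.6 and 48.7 FPKM in WT and 29.2, 28.7 and 48.5 FPKM in HO, so that HO3 lay just under the lowest WT library (-0.62 ± 0.21, SE; adjusted p 0.165). Gm8883 had 30.6, 27.5 and 35.0 FPKM in WT and 33.2, 50.2 and 50.4 FPKM in HO, with HO1 inside the WT range (0.50 ± 0.18, SE; adjusted p 0.179). Gm26917 had 130.3, 92.6 and 95.3 FPKM in WT and 107.2, 99.7 and 59.9 FPKM in HO, and its groups overlapped (adjusted p 0.538). Gm26669 averaged 46.0 ± 7.70 FPKM in WT and 35.4 ± 4.57 FPKM in HO (SD, n = 3), with a change of -0.37 ± 0.15 (SE; adjusted p 0.226). It shares 1672 of its 1808 exonic bases with Zfp36l1 on the other strand, and Zfp36l1 averaged 55.8 ± 8.94 FPKM in WT and 43.7 ± 4.73 FPKM in HO (SD, n = 3). The levels of these 2 genes cannot be told apart without knowing how strand was counted.

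Gm30097 and Gm26697 were higher in HO and lie antisense to abundant genes of hepatocytes. Gm30097 had 54.0, 54.5 and 77.0 FPKM in WT and 96.4, 185.9 and 164.5 FPKM in HO. All HO values lay above all WT values, with HO1 the lowest of its group, and the change was 1.23 ± 0.26 (SE; 95% confidence interval 0.62 to 1.84; adjusted p 0.0747). The adjusted p was 0.0345 without HO1 and 0.0647 to 0.229 without each other library. It shares 115 of its 768 exonic bases with Fgg, which encodes the gamma chain of the clotting protein fibrinogen. Fgg had 1558, 1452 and 1721 FPKM in WT and 1922, 3540 and 3235 FPKM in HO, with HO1 the lowest and HO2 the highest of HO, as in the lincRNA (0.83 ± 0.23, SE; adjusted p 0.108). Gm26697 had 72.4, 67.9 and 73.4 FPKM in WT and 90.9, 97.4 and 94.9 FPKM in HO (0.40 ± 0.08, SE; adjusted p 0.061). It shares 419 of 1760 exonic bases with Slc27a2, a fatty acid transporter and acyl-CoA synthetase, which averaged 532.7 ± 8.83 FPKM in WT and 611.3 ± 6.48 FPKM in HO (SD, n = 3; change 0.20, adjusted p 0.186).

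The promoter window of Gm30097 is shown because its start lies inside Fgg, 764 bases past the Fgg start on the other strand. It is chr3:83008366-83008665 of GRCm38.p6, minus strand, with its RefSeq start 73 bases from the GENCODE start, and capitals mark its 1 match to the same motifs, a CEBP match.
Gm30097: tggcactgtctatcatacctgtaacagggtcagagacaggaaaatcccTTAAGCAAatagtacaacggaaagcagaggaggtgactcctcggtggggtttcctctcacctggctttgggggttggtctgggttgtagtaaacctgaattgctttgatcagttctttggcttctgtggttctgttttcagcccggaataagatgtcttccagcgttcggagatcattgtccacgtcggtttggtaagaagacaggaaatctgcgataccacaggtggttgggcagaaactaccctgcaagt

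Gm30097 belongs to 25 lincRNAs whose start lies within 1000 bases of the start of a tested protein-coding gene on the opposite strand, each with its own partner. In 17 pairs the genes point away from each other and in 8 the starts overlap. Of the 25 pairs the coding gene had the higher mean FPKM in 20. None of these 25 lincRNAs and none of the 25 coding genes passed the threshold in limma, and 10 and 6 had an unadjusted p under 0.05. Such a p was found for 32.8% of the 189 members and 21.5% of all genes tested. The median change was -0.24 for the lincRNAs and -0.10 for the partners. Across the 25 pairs the log2 changes had a Pearson correlation of 0.60, which is a description over genes that share their 6 libraries, and in which overlapping exons can share reads. Gm30097 and Fgg, which share exonic bases, had the highest change on each side, 1.23 and 0.83. The correlation was not computed without this pair. The same correlation between each of the 189 members and its nearest tested coding gene was 0.52 within 5000 bases (n = 91) and 0.47 beyond (n = 98), so it was present at both ranges.

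The pairs named next were chosen after their values were seen. Gm34934, 97 bases from the start of Samd4, had 4.73, 2.85 and 2.77 FPKM in WT and 1.58, 1.12 and 1.27 FPKM in HO (-1.09 ± 0.21, SE; adjusted p 0.0637). Samd4, whose product binds RNA and represses translation, averaged 0.771 ± 0.322 FPKM in WT and 0.485 ± 0.140 FPKM in HO (SD, n = 3) and overlapped between the groups. 2010320M18Rik and Pik3r2, a regulatory subunit of phosphoinositide 3-kinase, start 102 bases apart and had changes of -0.48 and -0.43, with adjusted p of 0.0895 and 0.0932. Gm26608 lies 258 bases from the start of Insig1, which restrains cholesterol synthesis, and the pair had unequal values. Insig1 had 170.0, 125.6 and 153.1 FPKM in WT and 66.6, 64.8 and 95.1 FPKM in HO (-0.99 ± 0.18, SE; adjusted p 0.0526), while Gm26608 averaged 2.97 ± 0.592 and 2.42 ± 0.0919 FPKM (SD, n = 3; change -0.23, adjusted p 0.427). Gm16548, which overlaps the start of the coagulation factor V gene F5, had 10.1, 9.87 and 11.2 FPKM in WT and 15.8, 12.4 and 16.2 FPKM in HO (0.48 ± 0.13, SE, limma adjusted p 0.0985). It overlaps F5 and Selp on the other strand, and 700 of its 1226 exonic bases are shared with other genes. F5 averaged 75.1 FPKM in WT and 86.0 FPKM in HO, with a change of 0.19 ± 0.08 (SE).

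**Figure D5:**
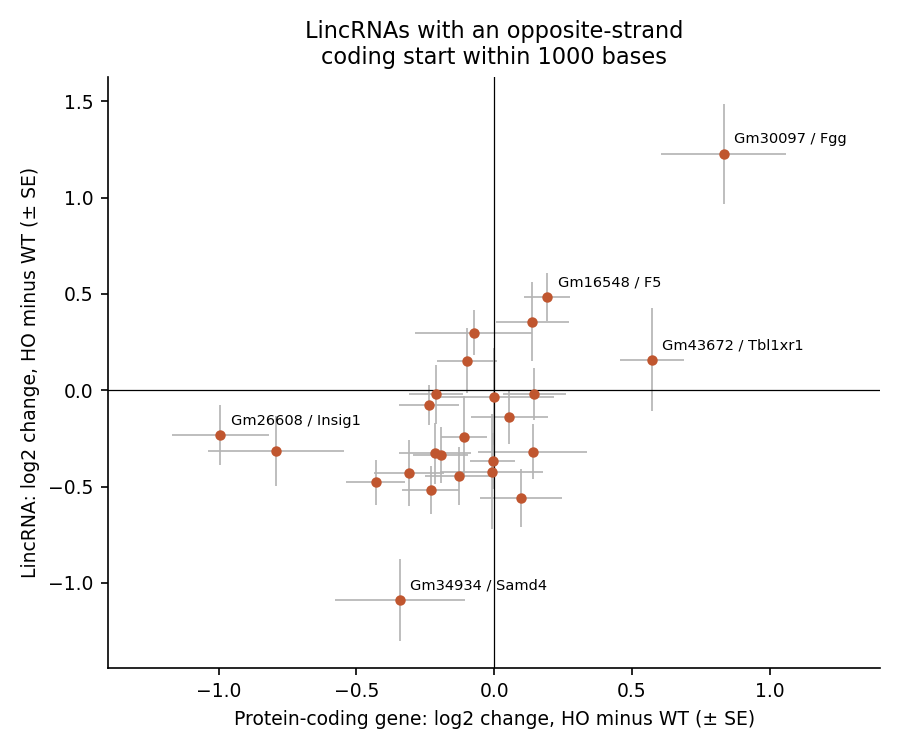
Log2 change (HO minus WT, with SE bars) of 25 lincRNAs, on the vertical axis, against that of the protein-coding gene starting within 1000 bases on the opposite strand. Gm30097 and Fgg lie highest, 19 lincRNAs and 16 coding genes lie below 0, and Insig1 has the lowest coding value while its partner Gm26608 lies near -0.23.

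Over all 189 members the nearest tested coding genes were 175 distinct genes, of which 2 (1.14%) passed the threshold, the same share as among all genes tested. These 2 were named after their values were seen. Slco1a4, an organic anion transporter 10159 bases from Gm30784, fell by 1.15 ± 0.19 (SE; adjusted p 0.0484), from 10.2 ± 2.28 to 4.33 ± 0.846 FPKM (SD, n = 3). Slc16a10, an aromatic amino acid transporter 21852 bases from Gm31992, rose by 0.71 ± 0.12 (SE; adjusted p 0.0484), from 21.6 ± 1.99 to 35.6 ± 4.13 FPKM (SD, n = 3). Gm30784 and Gm31992 had changes of -0.45 and -0.21, with adjusted p of 0.287 and 0.774.

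None of the members best known for a function passed the threshold. Neat1, the scaffold of nuclear paraspeckles, had 36.0, 21.03 and 19.8 FPKM in WT and 37.0, 23.1 and 25.9 FPKM in HO, with replicate 1 of each group the highest (0.18, 95% confidence interval -0.43 to 0.80). 2900097C17Rik is Norad, which binds Pumilio proteins in the cytoplasm, and had 17.1, 16.9 and 16.1 FPKM in WT and 16.4, 16.96 and 17.7 FPKM in HO (0.03, 95% confidence interval -0.17 to 0.23). 1700020I14Rik is Cyrano, which triggers the decay of a microRNA, and had 11.3, 10.4 and 10.3 FPKM in WT and 7.08, 7.63 and 11.3 FPKM in HO; HO3 lay at the level of WT (-0.31 ± 0.17, SE; adjusted p 0.347). Jpx, known as an activator of Xist, had 3.05, 3.04 and 3.39 FPKM in WT and 2.90, 5.04 and 5.86 FPKM in HO (0.43 ± 0.23, SE; adjusted p 0.328). Of 66 well-studied long non-coding RNAs of any type on a list made for this comparison, 41 had a row and 22 were tested. None of the 22 passed in limma, and 1 had an unadjusted p under 0.05 in each direction, against 21.5% of all genes tested in either direction. Their median change was -0.11, against -0.09 over all genes tested. The interval for Neat1 is wide, so these values do not show that it was alike in both groups.

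The host genes of snoRNAs, whose introns release the small RNAs that guide modification of ribosomal and other RNAs, gave 5 members. Besides Epb41l4aos they were Snhg6, with 8.72, 7.496 and 8.15 FPKM in WT and 7.76, 5.28 and 6.50 FPKM in HO, Snhg12 (change -0.10, or 0.0012 after median-of-ratios scaling), Snhg18 (-0.41) and Snhg20 (-0.43). Snhg18 averaged 1.25 ± 0.374 FPKM in WT and 0.804 ± 0.0535 FPKM in HO, and Snhg20 averaged 7.98 ± 1.51 and 5.77 ± 1.08 FPKM (SD, n = 3). Of these only the Snhg18 libraries did not overlap between groups, besides those of Epb41l4aos, and Snhg18 reached 1 FPKM only in the WT mean. Over all 19 host genes with a row, of any type, 16 were tested and none passed in limma, while 4 (25%) had an unadjusted p under 0.05, all lower in HO. Over all genes tested 21.5% had such a p, most of them lower in HO. The median change of the host genes was -0.29, against -0.09 over all genes tested, and their summed level was 152.6 to 162.5 FPKM in WT and 128.2 to 140.6 FPKM in HO.

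Some members hold microRNA genes, and the table gives the host level, not that of the mature microRNA. E130102H24Rik on chromosome 4 contains the gene of miR-101a, a microRNA known to target the histone methyltransferase Ezh2, and its mature sequences are given because the host's log2 change was the second highest of the 189, a choice made after its value was seen. They lie at chr4:101346957-101346977 (3p arm) and chr4:101346993-101347014 (5p arm) on the minus strand of GRCm38.p6, from RefSeq, with the seed (bases 2 to 8) in capitals.
miR-101a-3p: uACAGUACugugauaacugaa
miR-101a-5p: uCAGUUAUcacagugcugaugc

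E130102H24Rik had 0.191, 4.60 and 3.24 FPKM in WT and 3.85, 5.88 and 5.44 FPKM in HO. WT1 stood far below the other libraries, the groups overlapped, and the change of 1.21 ± 0.69 (SE) had an adjusted p of 0.358. AC157910.3, also chosen after its values were seen, contains the gene of miR-122, the main microRNA of hepatocytes. Its level was 3.73, 4.78 and 2.61 FPKM in WT and 0.901, 5.43 and 1.74 FPKM in HO, with wide spread in HO (-0.63 ± 0.50, SE; adjusted p 0.503).

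Members lay on every mouse chromosome. Chromosome 5 held 20, chromosome 10 held 18, chromosome 1 held 16, and the X and Y chromosomes held 2 and 1. Lncenc1 lies on chromosome 13 at 97434970 to 97497007, and the nearest of the 11 members there, Gm46430, was 22.8 Mb away. Gm46430 had 4.66, 5.29 and 5.54 FPKM in WT and 4.71, 5.75 and 6.13 FPKM in HO (0.09 ± 0.13, SE). Of the 11, none passed the threshold in limma and 4 had an unadjusted p under 0.05, at distances of 22.9 Mb or more. The share with such a p was 32.8% over all 189 members and 21.5% over all genes tested, so these 4 are not read as a result about chromosome 13. One of the 4, Gm40923, lies 57.6 Mb away and was chosen after its values were seen. It had 2.39, 2.73 and 1.62 FPKM in WT and 0.658, 1.01 and 1.22 FPKM in HO (-0.90 ± 0.22, SE, adjusted p 0.0894).

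The median lincRNA change was -0.19 without scaling. Some markers of other liver cell types had lower summed levels in HO, also without scaling. The 9 stellate cell and fibroblast markers summed to 91.3 to 117.4 FPKM in WT and 62.3 to 78.2 FPKM in HO. None passed in limma, and 5 had an unadjusted p under 0.05, all lower in HO. Such a p was found for 21.5% of all genes tested, where 16.5% of all genes tested were lower in HO and 5.01% higher. The stellate sum follows Dcn, the most abundant of the 9, and Des had a change of 0.06. The 5 erythroid markers summed to 644.4 to 667.3 FPKM in WT and 319.2 to 547.5 FPKM in HO. With 0 past the threshold in limma, 4 had an unadjusted p under 0.05 and were lower in HO, while Alas2 had a change of 0.15. Endothelial markers (8 genes) summed to 49.5 to 60.4 FPKM in WT and 45.2 to 51.3 FPKM in HO, and cholangiocyte markers (7 genes) to 29.3 to 34.2 and 26.8 to 30.6 FPKM, with Cftr under 0.1 FPKM in every library. B and T cell markers (8 genes) summed to 1.85 to 2.55 FPKM in WT and 1.32 to 1.36 FPKM in HO, and 0 of them were tested. The 6 neutrophil markers summed to 1.27 to 4.41 FPKM in WT and 2.60 to 7.76 FPKM in HO, and Ly6g was at 0 throughout. Of the 2 neutrophil markers tested, 0 passed in limma and 1, S100a9, had an unadjusted p under 0.05. S100a9 had 0.893, 0.491 and 1.75 FPKM in WT and 2.45, 3.28 and 3.75 FPKM in HO (1.31 ± 0.30, SE, limma adjusted p 0.0828). S100a8 had a change of 0.12. Of the 3 adipocyte markers with a row, Plin1 and Adipoq were at 0 in all libraries, and Cidec, a lipid droplet protein also known from fatty liver, had 32.4, 27.9 and 35.6 FPKM in WT and 9.96, 17.3 and 21.8 FPKM in HO, with no overlap (-1.01 ± 0.26, SE; adjusted p 0.0998). The part of these differences in the lincRNA values was not tested.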

How the data were processed

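Mouse liver RNA of 3 WT and 3 HO samples was sequenced from libraries that preserve strand, per the labels' protocols. The deposited table gives FPKM values, made per gene and library by the authors. StringTie, HTSeq, HISAT2, DESeq2 and the build mm10 are named in the submitters' processing notes; the tool behind the FPKM values and the use of strand were not given in the sources used here. Columns were matched to samples by group and replicate number. Of low values, 32.9% to 35.3% were whole multiples of a 1-read step within 0.02 reads, too few to recover counts, so count models were not used. Relative depths come from that step.

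All 24034 gene identifiers were found in GENCODE M21, which gave positions, and promoters and microRNAs came from RefSeq tables for GRCm38.p6. Genes averaging at least 0.5 FPKM (13250, including all 189 lincRNAs) were fitted as log2(FPKM + 0.5) with limma 3.58.1 in R 4.3.3 (2 groups, no block, eBayes with a trend). Tests were two-sided, adjusted by Benjamini-Hochberg over all genes at 0.05. Fold changes on this scale understate those of low genes. The fit was tested on simulated data. Named genes were all members past the threshold, the 8 with the smallest p, the 10 most abundant, members on the well-studied and snoRNA host lists, the nearest coding genes of called members, and 2 genes on each side of the level threshold; others are said to be chosen after their values were seen. Members, lists and tests were chosen with earlier results of these data known.

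The 16 alternatives were pseudocounts of 1 and 0.1, no filter, a filter at 1 FPKM, quantile normalization, median-of-ratios scaling, array weights (statmod 1.5.0), robust eBayes, eBayes with no trend, a replicate block and leaving out each library. Lncenc1 was not analysed here. Python 3.11.15, numpy 2.4.6, pandas 2.3.3, scipy 1.17.1 and matplotlib 3.10.9 were used.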

Additional observations from a re-analysis of the deposited data

How the results depend on the processing

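The number of lincRNAs past the threshold, 1 higher and 2 lower in HO, was the same with a pseudocount of 1 and with robust eBayes. It was 1 and 1 with a pseudocount of 0.1, 0 and 0 with no filter, 1 and 4 with a filter at 1 FPKM, 2 and 1 with median-of-ratios scaling or quantile normalization, 0 and 1 for eBayes without a trend, and 8 and 19 with array weights. Leaving out 1 library gave 0 to 3 higher and 0 to 6 lower. The replicate block gave 0 higher and 0 lower among the lincRNAs, with 66 at an unadjusted p under 0.05, and 10 and 15 over all genes. Over all genes tested, libraries of the same number did not deviate together from their group means (correlations of 0.07, -0.03 and 0.01). The labels give them only a shared number, and whether they shared a batch was not tested. Over all genes tested, the 43 higher and 108 lower became 23 higher with a pseudocount of 0.1, 7 and 33 with no filter, 70 and 64 with median-of-ratios scaling, 18 and 59 without a trend, and 249 and 692 with array weights; leaving out 1 library gave 2 to 91 higher and 4 to 171 lower. The median change of the lincRNAs, -0.19, was -0.14 with a pseudocount of 1, -0.086 after scaling by median of ratios and -0.07 after quantile normalization, and remained below 0. No lincRNA that passed in the reported fit changed sign. Malat1 changed sign in 3 alternatives, Snhg12 in 2 and Neat1 in 1, none of them called, and 2900097C17Rik came to 0.0 without HO3. The cause of these differences was not tested. With 3 libraries per group and no counts, low members are measured imprecisely.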
